A study of Mus musculus with 25 samples.

Results

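The cytosolic ribosomal protein genes of the mouse were followed here across livers of aged males that differed in genotype and diet. They were chosen by name: gene symbols that begin with Rpl or Rps and go on with a number and at most a final a, x or y, together with Rpsa, Rplp0, Rplp1 and Rplp2. Kinases (Rps6k), the paralog Rps27l and pseudogenes were left aside. The rule found 76 of the 24537 genes in the count table: 30 proteins of the small ribosomal subunit, 43 of the large subunit and the 3 proteins of its P stalk. All 76 had enough counts to be tested, and the lowest count of any of them in any library was 542.

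The samples were livers of C57BL6/J males aged 24 months. Mice of genotype p53KO were set against mice of genotype Rosa26KO (Rosa26 is a locus commonly targeted as a neutral control), and each genotype was fed either a control diet or a high-fat diet (HFD). Control_Rosa26KO and HFD_Rosa26KO hold 6 samples each, Control_p53KO also holds 6, and HFD_p53KO holds 7. Polyadenylated RNA was sequenced from flash-frozen tissue, and the values are read counts per gene. The labels do not give how or in which cells either knockout was made. They number the samples without naming animals, so the p-values measure the spread between these samples. In whole liver, fewer cells of a type and less RNA per cell cannot be told apart.

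Ribosomes translate mRNA into protein. Their small subunit reads the mRNA, and the large subunit joins amino acids and recruits the elongation factors through its P stalk. Each ribosome holds 1 copy of nearly every ribosomal protein, so cells make these proteins in matched amounts. Most of their mRNAs are short and abundant and open at the cap with a cytidine followed by a run of pyrimidines, the 5′ terminal oligopyrimidine (TOP) motif, through which the mTORC1 kinase pathway and the protein Larp1 adjust their translation and stability to nutrients. A few ribosomal proteins, of which Rpl5, Rpl11 and Rpl23 are the best known, bind the ubiquitin ligase Mdm2 when ribosome assembly is disturbed and thereby stabilise p53. Hepatocytes secrete large amounts of plasma protein and hold many ribosomes.

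Total counts ran from 16324283 to 21501281 per library. Trp53, the gene that encodes p53, had a level of 36.8 ± 4.80 CPM (counts scaled to library size with TMM factors; SD over libraries) in Control_Rosa26KO and 37.1 ± 4.56 in HFD_Rosa26KO. It had 24.1 ± 6.89 CPM in Control_p53KO and 26.0 ± 4.47 in HFD_p53KO. In the mean of both diets its log2 fold change was -0.56 ± 0.10 (SE), which did not pass the test (edgeR adjusted p = 0.21), and where its reads lie relative to the deleted part is not known. Several libraries stood apart in other markers. Summed neutrophil markers reached 4585 CPM in Control_p53KO 1 and 3949.9 CPM in HFD_p53KO 2, against group medians of 53.9 to 207. Lcn2, which hepatocytes can also make, was 3952 and 3885 CPM of these sums. Without Lcn2 the highest sums were 633 CPM in Control_p53KO 1, 408 in HFD_Rosa26KO 6 and 127 in Control_p53KO 3, with 64.5 in HFD_p53KO 2 and group medians of 18.8 to 34.4. Control_p53KO 3 was highest in Kupffer cell markers (2776 CPM, group medians 565 to 806) and in T and NK cell markers (184 CPM, group medians 21.0 to 32.1). HFD_Rosa26KO 1, HFD_Rosa26KO 6 and HFD_p53KO 5 were highest in erythroid markers, with 8254, 6110.2 and 4648 CPM (group medians 946 to 1348). The counts of ribosomal protein genes past the test on HFD are given with and without 3 such sets: the libraries highest in neutrophil markers other than Lcn2 (Control_p53KO 1, Control_p53KO 3 and HFD_Rosa26KO 6), those highest in Lcn2 (Control_p53KO 1 and HFD_p53KO 2) and the 3 highest in erythroid markers. The last 2 sets were chosen after seeing the data.

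The annotated start sites show the sequence feature that this gene family is known for. RefSeq promoter sequence (build GRCm38.p6) was matched for 56 of the 76 genes. A gene was counted if any of its annotated starts opened with a C followed by at least 4 further C or T bases. Genes with more annotated starts thus have more chances to match. There were 13 such genes among these 56 (23.2%), against 3.01% of 27025 genes with such sequence. With the start sites of GENCODE M21, over any coding transcript of a gene, the shares were 22 of 76 (28.9%) against 5.12% of 21901 coding genes. Annotated starts can lie some bases away from the cap site, so no match says only that the run does not begin at the annotated base. The windows below hold 15 bases before and 15 bases after the annotated start, 5′ to 3′ on the transcribed strand, with the pyrimidine run in capitals. They show members whose levels are described below: the S6 kinase substrate Rps6, Rpl28 and Rps10, which were lower on HFD in Rosa26KO, the stalk gene Rplp2, Rps15a, whose HFD value was nearest to 0, and Rpl15, among the least variable members. The members Rpl5, Rpl12 and Rps4x, which have no run at the annotated base, follow for comparison. Rpl10a, Rpsa, Rplp0 and Rpl41, also described below, have no run there either and are not shown. The display is a choice and does not reflect the share of 13 in 56. Of the 6 members shown with a run, only Rps10 and Rps15a also have it at a GENCODE start.
Rps6 (chr4:86857353-86857382, minus strand): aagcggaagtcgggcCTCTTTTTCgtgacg
Rpl28 (chr7:4792950-4792979, plus strand): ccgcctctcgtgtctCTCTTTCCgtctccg
Rps10 (chr17:27635230-27635259, minus strand): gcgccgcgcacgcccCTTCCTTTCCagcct
Rplp2 (chr7:141447636-141447665, plus strand): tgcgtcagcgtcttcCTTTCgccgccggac
Rps15a (chr7:118116133-118116162, minus strand): ctctctttctgccatCTTCCCTCgccggtg
Rpl15 (chr14:18270972-18271001, minus strand): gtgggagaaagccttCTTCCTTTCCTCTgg
Rpl5 (chr5:107900513-107900542, plus strand): tctcacgtcgcttgcgtgctggtggtgcta
Rpl12 (chr2:32961697-32961726, plus strand): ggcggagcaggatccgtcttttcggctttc
Rps4x (chrX:102189377-102189406, minus strand): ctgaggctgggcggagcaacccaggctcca
In Rpl12 a pyrimidine stretch lies just after the annotated base rather than at it. Within the window from 250 bases before to 50 bases after the start, CCGGAAG, a core that ETS family factors bind, was present on either strand in 41.1% of the 56 members against 9.93% of all genes, while TATAAA on the transcribed strand was present in 8.93% against 9.77%. The letters CTTTC occurred in the 50 bases after the start in 44.6% of members and in 6.95% of all genes.

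The ribosomal protein mRNAs were abundant, and their levels spanned a wide range. Levels are compared between genes as CPM per kilobase of annotated mRNA. The median member had 187 CPM per kb, with quartiles of 133 and 253, and the median of the 13767 tested genes with a length was 5.47. Of those tested genes, 73.1% lay below the lowest member. The stalk gene Rplp1 (489 ± 79.4 CPM per kb, SD over 25 libraries), Rps24 (488 ± 80.4) and Rpl41 (467 ± 78.6), which encodes the shortest ribosomal protein, formed the top of the order and did not differ beyond their spread. The lowest levels were those of Rps15a (14.6 ± 1.86) and Rps20 (34.3 ± 4.68), whose annotated mRNAs of 5.18 and 3.71 kb are the longest used here. Their mean CPM of 75.8 and 127 lie within the range of the family, so no order is read from these. Above them came Rpl22 (41.3 ± 5.86), Rpl15 (61.4 ± 6.21) and the stalk gene Rplp2 (87.1 ± 11.9). Rplp1 and Rplp2 encode partners that join as a dimer on the stalk, and their mRNA levels per length differed by more than their spread. Over the 25 libraries the SD of log2 CPM was smallest for the large subunit genes Rpl27 (0.15), Rpl15 (0.15) and Rpl29 (0.17), and largest for Rpl28 (0.29), Rpl36 (0.29) and Rpsa (0.28).

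The levels moved together across libraries, in part with diet and in part within groups. The mean log2 CPM of the 76 genes was 7.34 ± 0.162 (SD) in Control_Rosa26KO and 7.06 ± 0.13 in HFD_Rosa26KO. It was 7.3 ± 0.0991 in Control_p53KO and 7.04 ± 0.192 in HFD_p53KO. In 10 of the 12 control-diet libraries, 59 to 76 of the 76 genes lay above their own median CPM over the 25 libraries. In 11 of the 13 HFD libraries, 0 to 16 did. The exceptions were Control_Rosa26KO 2 (18 genes above) and Control_p53KO 1 (21) on control diet, and HFD_Rosa26KO 4 (50) and HFD_p53KO 6 (75) on HFD. Control_Rosa26KO 3 was the highest library for 43 of the 76 genes and HFD_p53KO 4 the lowest for 37. The highest library was on control diet for 75 of the 76 genes, and the lowest was on HFD for 71. Control_p53KO 1 is the library with the highest neutrophil markers, while HFD_p53KO 6, with 199 CPM of neutrophil and 1010.4 CPM of erythroid markers, stood apart in neither.

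**Figure D1:**
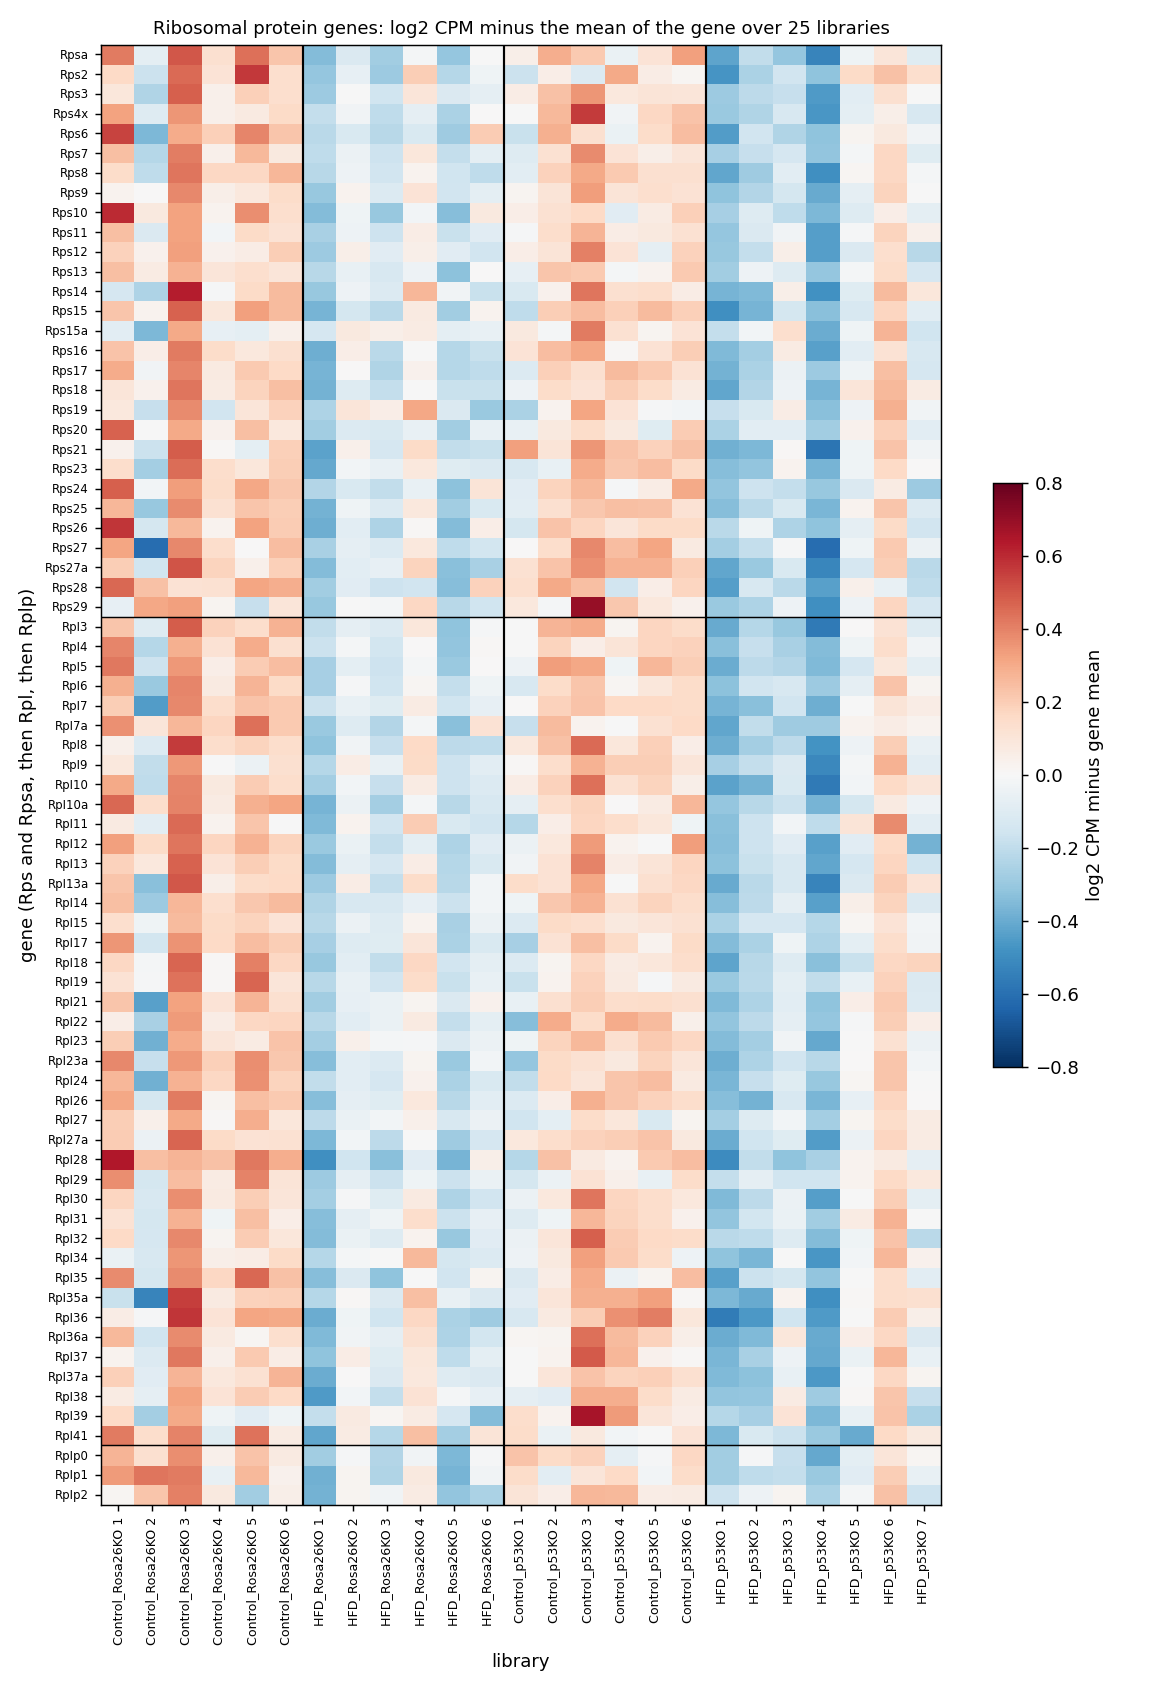
Each row is 1 of 74 of the 76 ribosomal protein genes and each column 1 of the 25 libraries, ordered by group (vertical lines) and by subunit (horizontal lines); colour is log2 CPM minus the mean of the gene over all libraries. Control-diet libraries are mostly red and HFD libraries mostly blue, with whole columns such as Control_Rosa26KO 2 and HFD_p53KO 6 that do not follow their group.

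As a share of all reads, ribosomal protein genes took 1.30% ± 0.0921 (SD, n = 6) of counts in Control_Rosa26KO and 1.19% ± 0.111 (SD, n = 6) in HFD_Rosa26KO. In Control_p53KO the share was 1.31% ± 0.248 (SD, n = 6), and HFD_p53KO had 1.22% ± 0.14 (SD, n = 7). In Rosa26KO the range was 1.19 to 1.45% on control diet and 1.03 to 1.32% on HFD. In p53KO it was 1.03 to 1.77% on control diet and 1.07 to 1.45% on HFD, so the diets overlapped in both genotypes. The 1.77% was that of Control_p53KO 3, the library highest in Kupffer cell and T cell markers, which had 2.22% without the 20 most abundant genes. Leaving out 1 library at a time gave means of 1.22 to 1.37% in Control_p53KO and 1.18 to 1.24% in HFD_p53KO. The difference in p53KO thus depended on single libraries. The share also depends on a few very abundant liver mRNAs: the 20 most abundant genes held 24.9% and 25.5% of counts in the control-diet groups and 22.2% and 19.0% in the HFD groups. Without those 20 genes, the ribosomal share was 1.73% ± 0.142 in Control_Rosa26KO against 1.53% ± 0.0936 in HFD_Rosa26KO, and 1.75% ± 0.262 in Control_p53KO against 1.51% ± 0.167 in HFD_p53KO. TMM scaling, used below, takes the same shift into account, with mean factors of 0.923 and 0.963 on control diet and 1.05 and 1.08 on HFD.

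**Figure D2:**
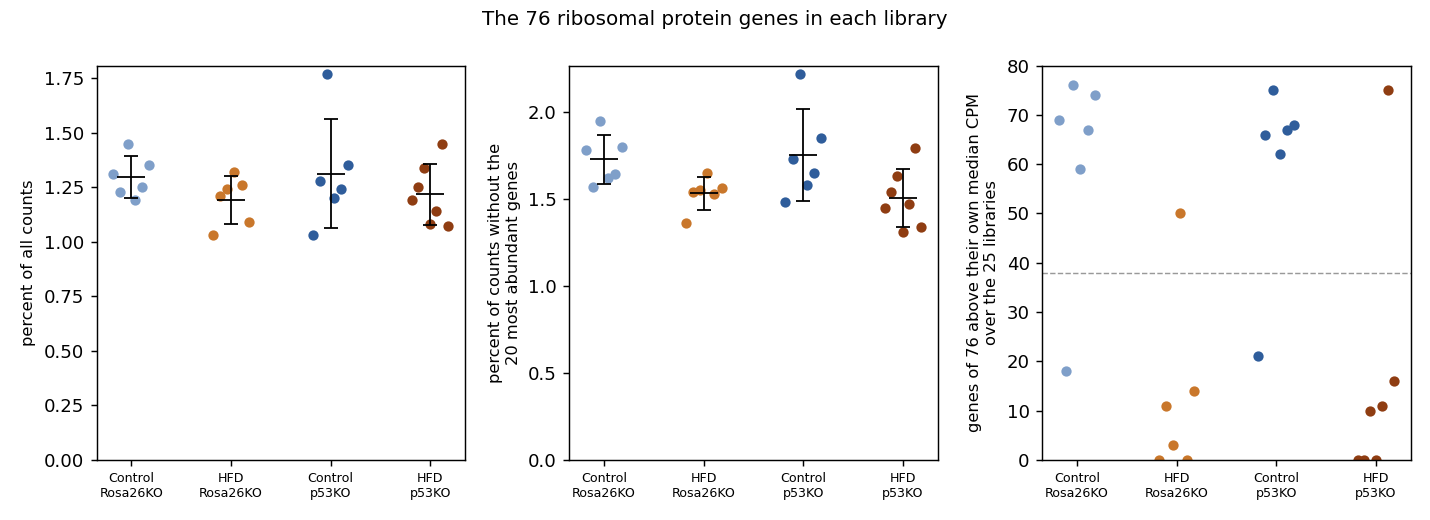
For each library, the panels give the share of all counts in the 76 genes, the same share without the 20 most abundant genes, and the number of the 76 genes above their own median CPM over the 25 libraries; bars in the first and second panels are group means and SD, and the dashed line marks 38 genes. The HFD groups have lower means in the first and second panels with overlapping points, and 11 of 13 HFD libraries lie at 16 genes or fewer in the last panel.

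In Rosa26KO mice on HFD, a subset of the ribosomal protein mRNAs was lower than on control diet and none was higher. The genes past the test numbered 10 of 76, among them Rpl10a, Rpl28, Rpl12, Rps10, Rps24, Rps28, Rpsa and Rps20, where 1.06% of all 14133 tested genes were called lower and 0.446% higher (2.02% lower among the 2974 abundant genes, those averaging 50 CPM or more). The log2 fold change was below 0 in 75 of the 76, with Rps15a at 0.02 as the exception, against 49.4% of all genes and 64.6% of the abundant ones. At an unadjusted p under 0.05, 56 were lower, against 9.91% of all genes and 18.2% of the abundant ones. Because the 76 genes moved together across libraries, they are not independent replicates, and such counts do not measure the diet effect on their own. The median over the 76 was -0.28, or -17.7%, over all tested genes 0.003 and over the abundant ones -0.083. With libraries scaled by total counts alone, all tested genes shifted to a median of 0.18 and the 76 to -0.10, and 0 of the 76 then passed the test. A change of scaling moves all genes by nearly the same amount. The unchanged distance of 0.28 to the median gene is therefore no check on the result. In the 6 HFD and 6 control libraries, 10 of the 76 genes had no overlap between groups, all lower on HFD, against 1.81% of all genes and 4% of the abundant ones.

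Rpl10a, at chr17:28328471-28331033, encodes the protein of the mobile L1 stalk through which spent tRNA leaves. It ranged from 145 to 191 CPM in Control_Rosa26KO (median 171) and from 107 to 137 in HFD_Rosa26KO (median 123). The groups did not overlap, and the log2 fold change was -0.46 ± 0.09 (SE, adjusted p = 0.00962). Rpl28, a large subunit protein gene at chr7:4792874-4795066, ranged from 228 to 303 CPM (median 235) on control diet and from 138 to 200.5 (median 164) on HFD. It fell the most, by 0.58 ± 0.11 on the log2 scale (adjusted p = 0.00962), or -33.0%, again with no overlap.

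Rpl12 lies at the base of the P stalk, where translation factors dock. Its levels were 156 to 189 CPM (median 164) on control diet and 114 to 135 (median 128) on HFD, without overlap, and it changed by -0.41 ± 0.10 (adjusted p = 0.0302). Rps10, a protein of the small subunit head, had 115 to 171 CPM (median 133) on control diet and 88.7 to 119 (median 101) on HFD, which overlapped narrowly, and changed by -0.42 ± 0.10 (adjusted p = 0.0315).

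Rpsa, known both as a ribosomal protein and as a laminin receptor, had at least 331 CPM (median 438) in each control-diet library and 275 to 349 (median 306) on HFD, which overlapped. The log2 fold change was -0.45 ± 0.12 (adjusted p = 0.0479). The small subunit genes Rps24 (median 226 CPM on HFD against 304) and Rps28 (median 90.7 against 122), whose ranges overlapped between diets, changed by -0.39 ± 0.10 each. Rps20 lay just inside the threshold (-0.35 ± 0.09, adjusted p = 0.0494), and Rpl7a just outside it (-0.40 ± 0.10, adjusted p = 0.0505). Rps16, Rpl13, Rps13, Rplp0 and Rps18 did not pass although their Rosa26KO groups did not overlap, with values of -0.33, -0.34, -0.28, -0.34 and -0.35. At the other end, Rps15a, a small subunit protein, was at 58.7 to 92.7 CPM (median 71.5) on control diet and at 68.4 to 79.2 (median 74.9) on HFD, and the ranges lay within each other.

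The number past the test in Rosa26KO depended on single libraries. It was 2 without any 1 of Control_Rosa26KO 1, 3 or 5 or of HFD_Rosa26KO 1, 2, 3 or 5. It was 4 without Control_Rosa26KO 4 or 6 or Control_p53KO 5 or 6, 6 without HFD_p53KO 2 or 3, and 27 without Control_Rosa26KO 2. The median over the 76 stayed between -0.34 and -0.24 in all these fits. Rpl10a and Rpl28 passed the test in every fit with 1 library left out. The count was 15 without the 3 libraries highest in neutrophil markers other than Lcn2 and 9 without those highest in Lcn2. Without the 3 libraries highest in erythroid markers it was 2 and the median -0.26, and Rpl28 passed (-0.60, adjusted p = 0.0273) while Rpl10a did not (-0.43, adjusted p = 0.0649). The share of all genes called in these fits is not given, so it is not known whether calls over all genes moved in the same way.

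In p53KO mice the family also lay lower on HFD, with fewer genes past the test. Rps27a and Rps4x fell, which is 2 of 76, where 1.25% of all tested genes were called lower and 1.62% higher (1.55% of the abundant ones lower), and none rose. This share is close to the background. All 76 log2 fold changes were below 0, against 54.1% of all genes and 52.4% of the abundant ones. At an unadjusted p under 0.05, 54 were lower, against 9.78% and 11.6%. The 76 genes moved together across libraries, so these 2 counts over genes do not stand for replicates of the diet effect. The median was -0.26, or -16.7%, beside -0.024 for all genes and -0.012 for the abundant ones. Under scaling by total counts alone it was -0.11, beside 0.14 for all genes, and 0 of the 76 passed the test. No member had groups without overlap, where 0.41% of all genes and 0.504% of the abundant ones did, in the lower direction.

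Rps27a, at chr11:29545846-29548109, encodes a precursor from which ubiquitin and a small subunit protein are cut. Its CPM ran from 129 to 153 (median 141) in Control_p53KO and from 82.5 to 136 (median 102) in HFD_p53KO. It fell by 0.44 ± 0.11 on the log2 scale (adjusted p = 0.0296), and 1 HFD library, HFD_p53KO 6 at 136 CPM, lay within the control range. Rps4x, the X-linked gene of a small subunit protein at chrX:102184941-102189394, ran from 228 to 342 CPM (median 266) on control diet and from 168 to 239.7 (median 212) on HFD, and fell by 0.39 ± 0.10 (adjusted p = 0.0370). In Rosa26KO the same genes had -0.32 ± 0.12 (Rps27a, adjusted p = 0.158) and -0.27 ± 0.10 (Rps4x, adjusted p = 0.189).

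Next in order of p in p53KO came Rpl5 (-0.36 ± 0.10, adjusted p = 0.0519) and Rps28 (-0.33 ± 0.09, adjusted p = 0.0582). Neither call in p53KO held in every fit with 1 library left out. The count was 0 without any 1 of Control_p53KO 2, 5 or 6 or of HFD_p53KO 1, 2 or 4, and 1 without Control_p53KO 3 or HFD_p53KO 3. It was 4 without Control_p53KO 1, 6 without Control_p53KO 4 and 10 without HFD_p53KO 6, while the median stayed between -0.32 and -0.22. Without the libraries highest in Lcn2 it was 0 and the median -0.28, and without the 3 highest in other neutrophil markers it was 0 and the median -0.27. Without the 3 highest in erythroid markers it was 3 and the median -0.28. These counts, too, are not set against the share of all genes called in the same fits.

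**Figure D3:**
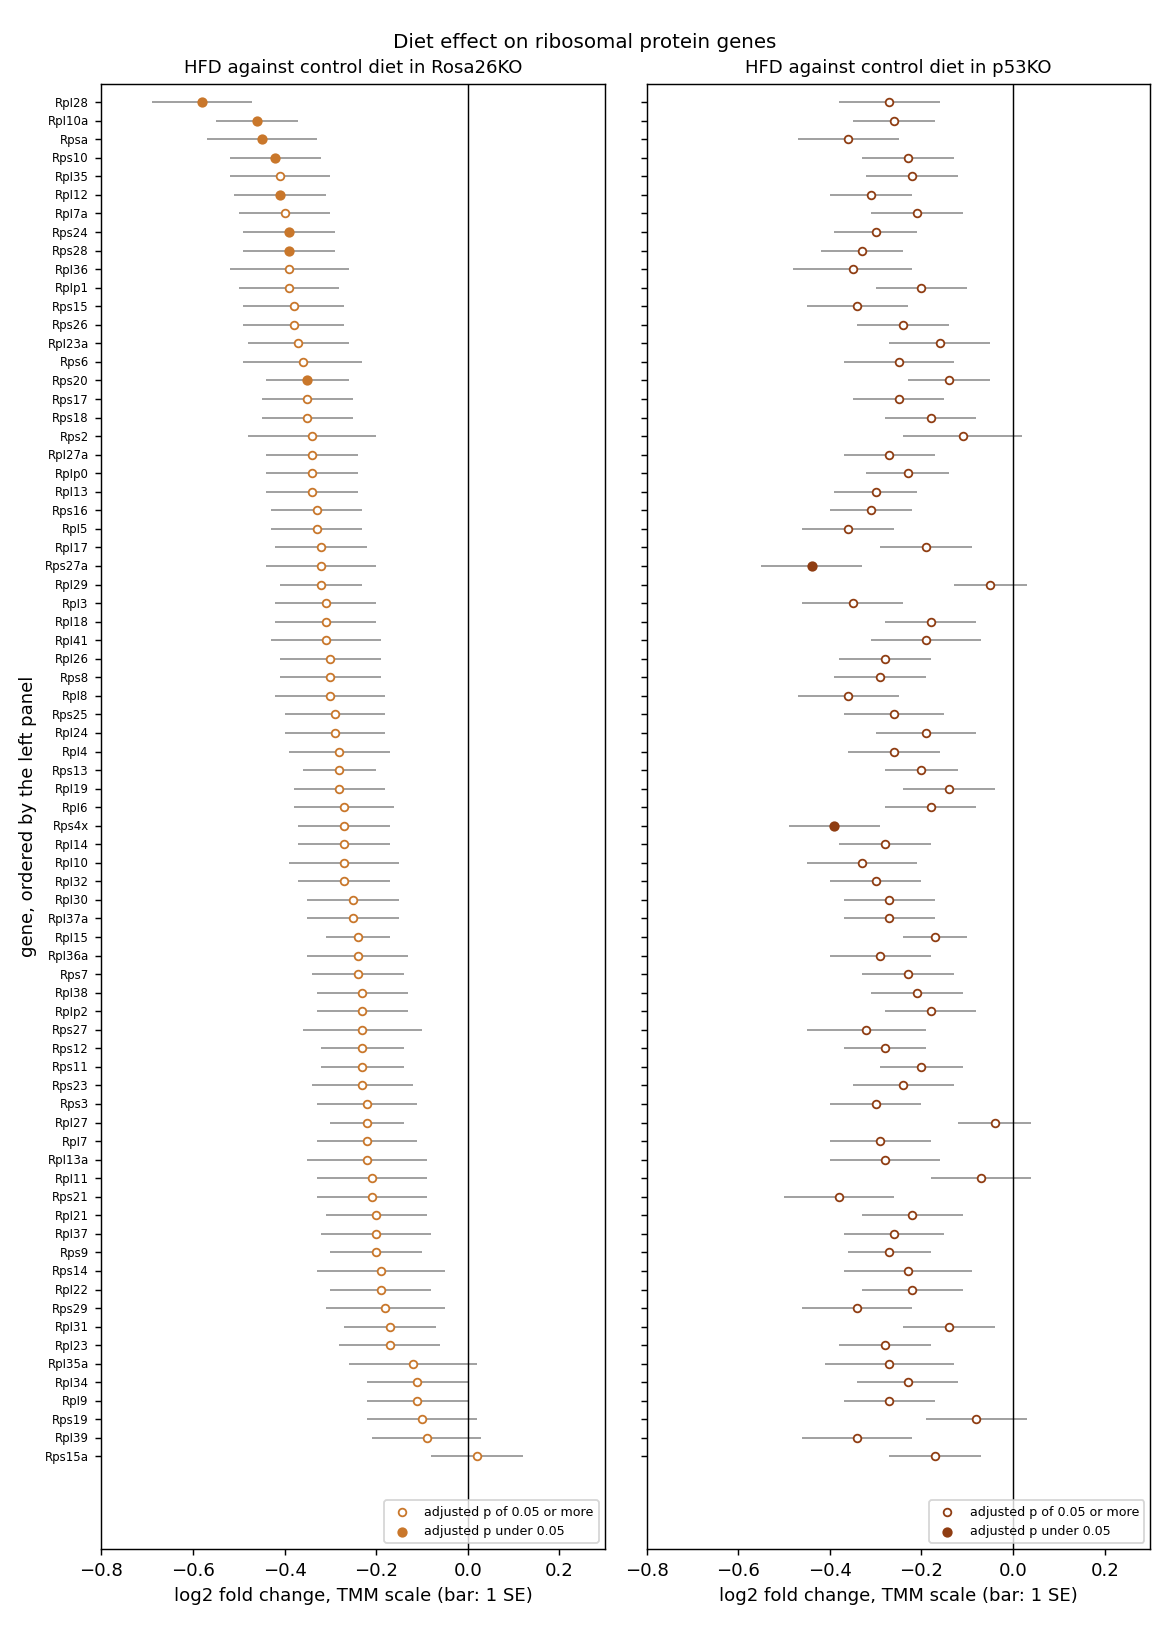
Points are log2 fold changes of HFD against control diet for 74 of the 76 genes in Rosa26KO (left) and p53KO (right), with bars of 1 SE; filled points passed an adjusted p of 0.05 in edgeR. Nearly all points lie left of 0 in both panels, and 8 and 2 of the points drawn are filled.

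Averaged over both genotypes, 50 of the 76 genes fell on HFD and none rose. This average was added after the separate comparisons had been seen, and it uses the same libraries, so it is no independent support for them. The background in it was 5.07% of all tested genes called lower and 4.64% higher, with 9.75% of the abundant ones lower. All 76 values were below 0, against 52.4% of all genes and 60.2% of the abundant ones, but the genes moved together and are not independent replicates. The median over the 76 was -0.26, beside -0.01 for all genes and -0.046 for the abundant ones. The genes past the test ran from -0.42 to -0.20 and the other 26 from -0.27 to -0.08. Under scaling by total counts alone the median was -0.10 beside 0.16 for all genes, and 2 of the 76 passed. The count stayed between 41 and 65 with each library left out in turn, and was 51 without the 3 libraries highest in neutrophil markers other than Lcn2, 50 without those highest in Lcn2 and 35 without the 3 highest in erythroid markers, where the median was -0.26. For these fits the share of all genes called is not given.

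By position in the ribosome, 23 of the 30 small subunit genes, 25 of the 43 large subunit genes and 2 of the 3 stalk genes fell in this average, with medians of -0.28, -0.26 and -0.28. Among small subunit genes, Rps6, the substrate of the S6 kinases, changed by -0.30 ± 0.09 (adjusted p = 0.0309). It had 187 to 350 CPM (median 288) in Control_Rosa26KO, 197 to 276 (median 214) in HFD_Rosa26KO, 212 to 293 (median 264) in Control_p53KO and 176 to 254 (median 216) in HFD_p53KO, so the groups overlapped in both genotypes. Its call was lost under total counts (-0.14, adjusted p = 0.221) and, at adjusted p of 0.0503 to 0.0609, without any 1 of Control_Rosa26KO 1 or 5, HFD_Rosa26KO 1, 3 or 5, Control_p53KO 2, 5 or 6, or HFD_p53KO 1 or 4. Rps27, of which Rps27l is a paralog, had -0.27 ± 0.09 and did not pass (adjusted p = 0.0641). Rps19 (-0.09 ± 0.08, adjusted p = 0.553), the gene most often mutated in Diamond-Blackfan anaemia, and Rps15a (-0.08 ± 0.07, adjusted p = 0.561) lay closest to 0.

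Among large subunit genes, Rpl3, whose protein lies near the catalytic centre, had 236 to 354 CPM (median 291) in Control_Rosa26KO, 202 to 269 (median 237) in HFD_Rosa26KO, 252 to 310.3 (median 282) in Control_p53KO and 171 to 274 (median 216) in HFD_p53KO. It fell by 0.33 ± 0.08 in the average (adjusted p = 0.00798), although neither genotype passed alone. Rpl36 had the widest scatter beside Rpl28, with medians of 80.2, 60.2, 76.6 and 62.2 CPM in the same order of groups, and fell by 0.37 ± 0.09 (adjusted p = 0.0132). Rpl15, with medians of 129.7, 112, 127 and 107 CPM, fell by only 0.20 ± 0.05 (adjusted p = 0.0134) but varied little between libraries. Rpl27, as steady, had medians of 112, 97.9, 99.6 and 99.7 CPM and did not pass (-0.13 ± 0.06, adjusted p = 0.141). Rpl41 (-0.25 ± 0.08, adjusted p = 0.0637) and Rpl22 (-0.20 ± 0.08, adjusted p = 0.095), which has the partly redundant paralog Rpl22l1, did not pass either.

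Of the P stalk genes, Rplp0 and Rplp1 fell. Rplp0, which anchors the stalk to the ribosome, had medians of 465, 377, 459.5 and 389 CPM in Control_Rosa26KO, HFD_Rosa26KO, Control_p53KO and HFD_p53KO, and changed by -0.28 ± 0.07 in the average (adjusted p = 0.0109). Its Rosa26KO groups, 423 to 531 against 320.2 to 408 CPM, did not overlap. Rplp1 changed by -0.30 ± 0.07 (adjusted p = 0.0136). Rplp2, at -0.21 ± 0.07 (adjusted p = 0.0616), did not pass.

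Of the genes whose proteins bind Mdm2, Rpl5 fell and Rpl11 and Rpl23 did not pass. Rpl5, at chr5:107900502-107909005, had 221 to 331 CPM (median 289) in Control_Rosa26KO, 201 to 248 (median 227) in HFD_Rosa26KO, 240.2 to 312 (median 291) in Control_p53KO and 188 to 263 (median 214) in HFD_p53KO. It fell in the average (-0.34 ± 0.07, adjusted p = 0.0041). Rpl11, which enters the ribosome together with Rpl5 and the small rRNA of the large subunit, had -0.14 ± 0.08 (adjusted p = 0.302), a value that turned to 0.03 under scaling by total counts alone. Its medians were 136, 119, 138 and 124 CPM in the same order of groups, and the ranges overlapped widely. Rpl23 had -0.22 ± 0.07 (adjusted p = 0.0524). That Rpl5 passed and the others did not is no test of a difference between these genes.

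**Figure D4:**
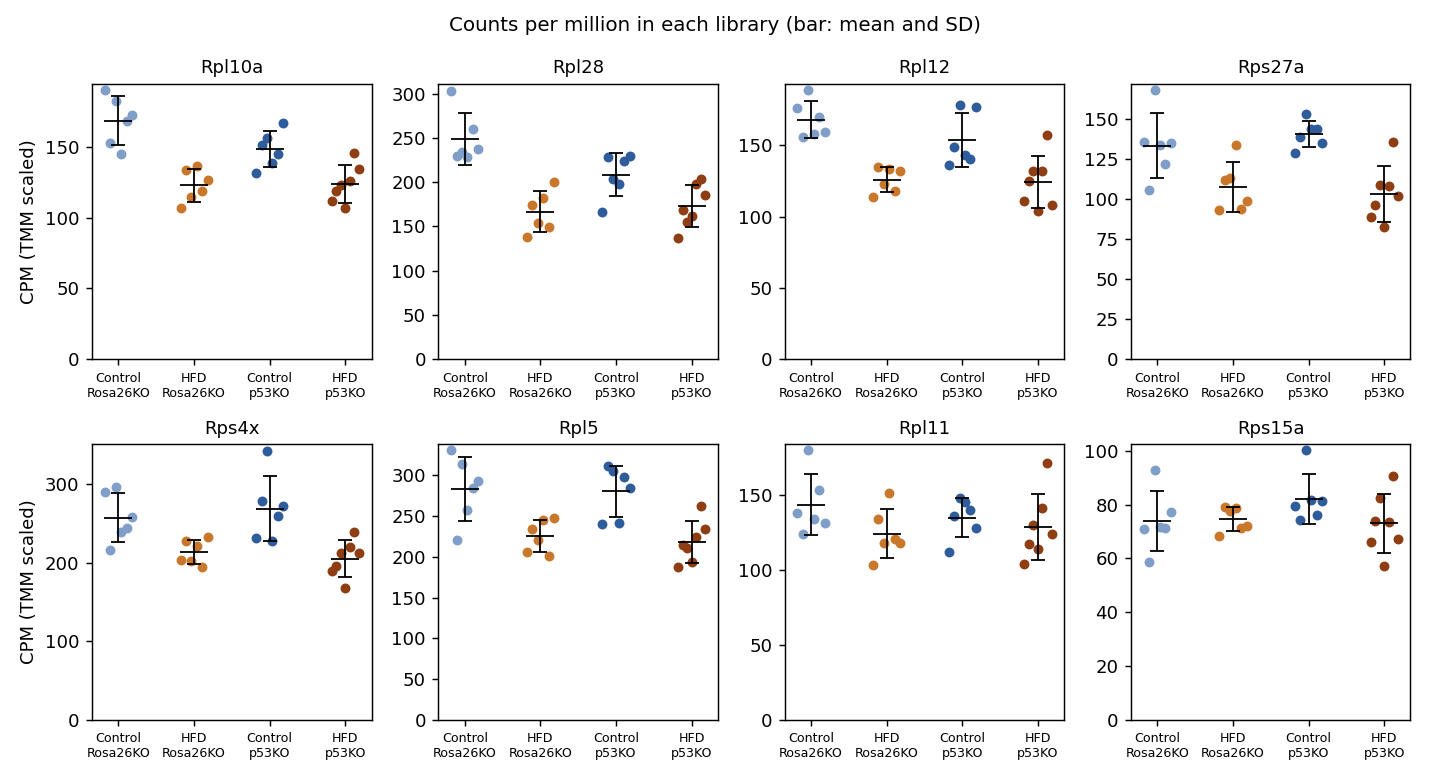
CPM of 8 ribosomal protein genes in each library of the 4 groups, with bars for mean and SD; the vertical axes start at 0 and differ between panels. HFD points lie below control points without overlap for Rpl10a, Rpl28 and Rpl12 in Rosa26KO, and among each other for Rpl11 and Rps15a.

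The diet effect did not differ detectably between genotypes. For the difference (effect in p53KO minus effect in Rosa26KO), 0 of the 76 genes and 0 of 14133 tested genes (0%) passed in edgeR, and 1 member had an unadjusted p under 0.05, against 8.64% of all genes. DESeq2 and limma voom called 0 members as well. The 76 differences ran from -0.25 to 0.31 with a median of 0.03, and their SE was 0.10 to 0.20. The largest was that of Rpl28, whose fall in Rosa26KO (-0.58) was set against -0.27 ± 0.11 in p53KO: 0.31 ± 0.16, adjusted p = 0.573. Rpl29, with -0.32 ± 0.09 in Rosa26KO and -0.05 ± 0.08 in p53KO, had a difference of 0.26 ± 0.12 (unadjusted p = 0.041, adjusted p = 0.57).

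Between genotypes no ribosomal protein gene passed the test. On control diet 0 of the 76 genes passed the test between p53KO and Rosa26KO, as on HFD and in the mean of both diets, where edgeR also called 0 of 14133 genes (0%) in each comparison. At an unadjusted p under 0.05 there were 2 members (Rpl28 and Rpl10a) on control diet, 0 on HFD and 0 in the mean, against 9.96%, 3.6% and 4.05% of all genes, and DESeq2 and limma voom called 0 members in each. In the mean of both diets the 76 values ran from -0.14 to 0.10 with a median of -0.02, beside 0.009 for all genes, and 58 of them were below 0, against 46.7% of all genes. On control diet, Rpl28 had 166 to 229.9 CPM (median 214) in p53KO against 228 to 303 (median 235) in Rosa26KO (-0.25 ± 0.11, adjusted p = 0.473). A p that misses the threshold does not show equal levels.

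Genes that work beside the ribosomal proteins were compared from lists chosen by function. Values are on the TMM scale, and under scaling by total counts alone all genes shift upward by a median of 0.16, so directions relative to 0 are given for both. Fau is made as a fusion of a ubiquitin-like protein with a ribosomal protein, and Rack1 is a scaffold on the small subunit. Both fell on HFD in the average over genotypes, Fau by 0.29 ± 0.08 (adjusted p = 0.0198) and Rack1 by 0.33 ± 0.07 (adjusted p = 0.00481), and both stayed below 0 under total counts. The gene for the small subunit protein Rps3a, which mouse nomenclature calls Rps3a1 and which the naming rule therefore does not take, fell as well (-0.29 ± 0.07, adjusted p = 0.00827). Of the paralogs, Rps27l, a known p53 target, had 0.00 ± 0.11 on HFD (adjusted p = 0.986) and -0.17 ± 0.11 in p53KO against Rosa26KO (adjusted p = 0.966). Rpl22l1 did not pass either (-0.14 ± 0.11, adjusted p = 0.462), and Rpl3l and Rpl39l had means under 0.1 CPM in each group.

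Translation factors and other genes whose mRNAs are known to carry TOP motifs fell in part. In the same average 6 of 24 fell and none rose, with a median of -0.13, which turned to 0.04 under total counts, where 1 fell and 1 rose. Elongation factor Eef1a1, which carries aminoacyl-tRNA to the ribosome, was among the most abundant with 4618 to 6789.7 CPM in Control_Rosa26KO and 3906 to 4847 in HFD_Rosa26KO, and changed by -0.37 ± 0.09 (adjusted p = 0.0141). Eef2, the translocation factor, had 1635 to 1938 against 1106 to 1576 CPM in the same groups, which did not overlap, and changed by -0.36 ± 0.09 (adjusted p = 0.0136). Eef1d, Eef1b2, Eif3h and Eif3l also fell, with log2 fold changes of -0.29, -0.25, -0.23 and -0.19. Pabpc1 (-0.11 ± 0.07, adjusted p = 0.35) and Npm1 (-0.13 ± 0.06, adjusted p = 0.168) did not pass.

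In the average over genotypes the ribosome assembly genes and the mitochondrial ribosome had medians near 0. Of 45 biogenesis genes 1 rose (Eif6, which keeps the large subunit from joining too early, 0.26 ± 0.08, adjusted p = 0.0451) and 1 fell (Nop16, -0.32 ± 0.08, adjusted p = 0.0136), with a median of 0.01. None of the 78 mitochondrial ribosomal protein genes passed in edgeR, with 9 at an unadjusted p under 0.05 (5 lower, 4 higher) and a median of -0.02. On the TMM scale the median of the mitochondrial list had opposite signs in the genotypes. These signs are not given under total counts, where the values of all genes shift upward. In Rosa26KO 65 of the 78 lay below 0 (median -0.11, 0 past the test, 12 lower at an unadjusted p under 0.05), and in p53KO 59 of the 78 lay above 0 (median 0.07, 0 past the test, 5 higher at such a p). The difference between genotypes was above 0 for 73 of the 78, with a median of 0.20, and 0 passed in edgeR, with 7 at such a p. In the average over genotypes under total counts, the biogenesis and mitochondrial lists had medians of 0.18 and 0.15, beside 0.16 for all genes. There 3 biogenesis and 22 mitochondrial genes were higher and none lower. The share of all genes called higher in that fit is not given, so these counts have no background. Of 20 genes of the mTORC1 pathway and its translation outputs, the nutrient sensor Sesn2 rose by 0.71 ± 0.12 (adjusted p = 0.000581), the mTOR subunit Mlst8 rose by 0.37 ± 0.08 (adjusted p = 0.00517) and Eif4ebp2, a repressor of cap-dependent translation, fell by 0.46 ± 0.13 (adjusted p = 0.0249). Under total counts 6 of the 20 were higher and none lower, with a median of 0.13 beside 0.16 for all genes. Sesn2 had 5.62 to 11.4 CPM in Control_Rosa26KO, 8.54 to 14.6 in HFD_Rosa26KO, 5.88 to 9.69 in Control_p53KO and 9.56 to 16.4 in HFD_p53KO. The kinase Mtor itself had 0.14 ± 0.06 (adjusted p = 0.169).

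**Figure D5:**
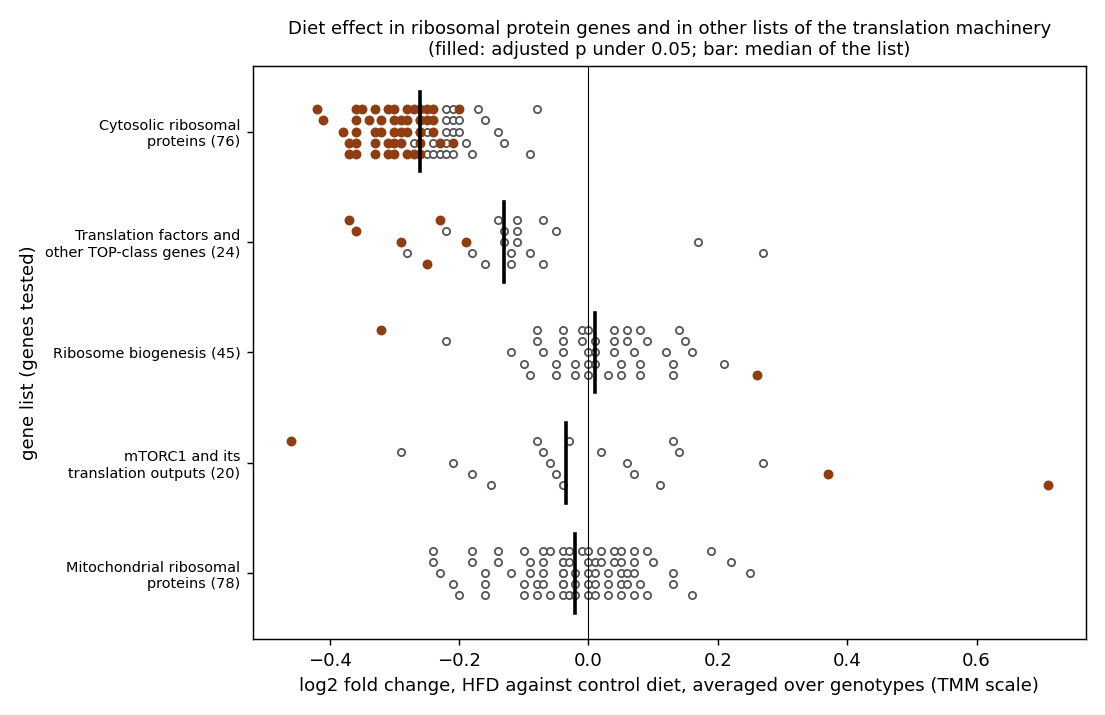
Points are log2 fold changes of HFD against control diet, averaged over genotypes, for the 76 ribosomal protein genes and for other lists of the translation machinery; filled points passed an adjusted p of 0.05 and vertical bars are medians. The ribosomal proteins have a median of -0.26, the TOP-class genes of -0.13, and the biogenesis and mitochondrial ribosome genes of 0.01 and -0.02.

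In the average over genotypes, markers of hepatocytes moved in the same direction as the ribosomal protein genes. This does not mean that they moved together library by library. All 12 of the hepatocyte list lay below 0 in the average, 6 of them past the test (Alb, Apoa1, Ass1, Cps1, Serpina1a and Tat), with a median of -0.57 (-0.41 under total counts, where 10 lay below 0 and 6 passed). Their summed level was 131205 to 196365 CPM in Control_Rosa26KO, 84822 to 215073 in HFD_Rosa26KO, 100512 to 209579 in Control_p53KO and 78456 to 152528 in HFD_p53KO, and none of the 12 was at 0 in any library. Erythroid markers were higher on HFD for 4 of 7 (Hba-a1, Hba-a2, Hbb-bs and Hbb-bt, median 1.26), with summed levels of 717 to 1366, 979 to 8254, 718 to 1906 and 923 to 4648 CPM in the same order of groups. Neutrophil (0 of 13 past the test), T and NK cell (0 of 10), B and plasma cell (0 of 7) and cholangiocyte markers (0 of 5) did not pass in edgeR, and Kupffer, sinusoidal endothelial and stellate markers had 1 lower of 10 each (Cd163, Clec4g and Reln). Under total counts 6 of the 7 erythroid markers were higher (median 1.40), stellate markers had 1 higher and none lower, Kupffer markers 1 of each and endothelial markers 1 lower, and the other lists stayed at 0.

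The erythroid values on HFD stood out in the same 3 libraries. Hba-a1, the alpha globin gene, had 2838 CPM in HFD_Rosa26KO 1, 2167 in HFD_Rosa26KO 6 and 1714 in HFD_p53KO 5, and its group medians were 377, 461, 319 and 443 CPM in Control_Rosa26KO, HFD_Rosa26KO, Control_p53KO and HFD_p53KO. Without these 3 libraries 0 of the 6 erythroid markers still tested passed in the average (median 0.19), while the hepatocyte list had 5 lower and a median of -0.68.

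Within genotypes the leukocyte markers lay on opposite sides of 0, although none passed in edgeR. The median of the 13 neutrophil markers was 2.29 in Rosa26KO (13 above 0, 7 of them at an unadjusted p under 0.05) and -2.69 in p53KO (12 below 0, 10 of them at such a p). The difference between these effects had a median of -5.12, with 0 past the test and 10 at such a p. Single libraries weigh on these medians. Markers other than Lcn2 summed to 633 CPM in Control_p53KO 1 and 408 in HFD_Rosa26KO 6, against group medians of 18.8 to 34.4. Without the 3 libraries highest in erythroid markers, which include HFD_Rosa26KO 6, the neutrophil median was 0.44 in Rosa26KO and -2.62 in p53KO. Kupffer markers had medians of 0.31 and -0.75, T and NK cell markers of 0.10 and -0.70, and B and plasma cell markers of 0.37 and -0.28 in Rosa26KO and p53KO. Erythroid markers had 1.87 in Rosa26KO, with 1 past the test, and 0.63 in p53KO, with 0. The hepatocyte list lay lower in both, with medians of -0.43 (0 past the test) and -0.61 (1 lower). The part of these markers in the result on ribosomal proteins was not tested.

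No label names a batch. The library numbers are consecutive and go through the 4 groups 3 times over, first with samples 1 and 2, then 3 and 4, then 5 to 7 of each group, and they were divided here at these repeats. Within these 3 stretches of library numbers the median difference of the 76 genes on HFD was -0.23, -0.27 and -0.34 in Rosa26KO and -0.31, -0.42 and -0.09 in p53KO, with 2 libraries on each side (3 for HFD_p53KO in the last stretch). Between 67 and 76 of the 76 genes were below 0 in each. The smallest value is that of the stretch with HFD_p53KO 6. The last stretch against the first, with groups accounted for, had 0 members past the test in edgeR and 28 at an unadjusted p under 0.05, where 0.333% of all tested genes were called lower, 0.248% higher and 22.2% had such an unadjusted p. Of the 76 values 75 were above 0, against 49.1% of all genes, with a median of 0.15.

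Features of the genes themselves were set beside the diet effect as a description. The 76 genes lie on 19 chromosomes, with 14 on chromosome 7. Across the 76 genes, which are not independent replicates, Spearman's rho between the diet effect and annotated mRNA length was -0.03 in Rosa26KO and 0.06 in p53KO, and with mean log2 CPM it was -0.42 and -0.13. These points share libraries and depth. The 22 genes with a pyrimidine run at any GENCODE start and the other 54 had the same median diet effect in the average (-0.26), with 16 and 34 past the test. Introns of 29 genes hold 56 snoRNA genes, up to 5 in 1 gene, since many guide RNAs for rRNA modification are made from ribosomal protein introns. Named pseudogenes are annotated for 59 of the 76, 291 in all, and reads of a parent gene and its copies may not be told apart. Counts nearly equal to a member's in all 25 libraries (within 10%, and a correlation of log counts above 0.98) were found for 4 genes of the table: Rps27rt, at 0.99 to 1 times the count of Rps27, Gm15772 for Rpl26, Gm12191 for Rpl30 and Rpl34-ps1 for Rpl34. The values of these 4 members are uncertain for that reason. The 21 genes with 5 or more named pseudogenes had a median of -0.24, as did the 17 with none. Exons of 21 genes overlap another gene, among them Rpl10a, Rpl28, Rpl12, Rps10, Rps28, Rps27a and Rpl5, and their counts are uncertain to that extent because the strand of counting is not given. Of these 21, 16 fell in the average, against 34 of the 55 without overlap.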

How the data were processed

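Liver polyA RNA was sequenced from 25 samples. The deposited values are raw read counts per gene for 24537 symbols. The submitters' processing notes name STAR, HOMER and the builds GRCm38 and mm10. Their versions, the annotation, the strand and the handling of multiply mapped reads are not given here. From the deposited counts, genes were kept with filterByExpr (minimum count 10, minimum total 15), which left 14133, and were scaled by TMM and fitted in edgeR 4.0.16 (quasi-likelihood, robust) to all 25 libraries with 1 mean per group. All tests are two-sided, with Benjamini-Hochberg adjustment over every tested gene and a threshold of 0.05. SE is that of the log2 fold change, and SD that of CPM between libraries. Lengths are medians of RefSeq-linked coding transcripts in GENCODE M21 (GRCm38). Named were fixed groups (Mdm2-binding and stalk proteins, Rps6, Rpsa, Rpl41, Rpl22, Rps27), up to 5 calls or the 5 of smallest p per comparison, the extremes of level and spread, and up to 4 called genes of other lists. The paralogs were fixed too. Further genes, such as those near a threshold, were named after their values were seen. The members and lists were chosen with earlier results of these data known. Alternatives were other scalings, no filter, DESeq2 1.42.0, limma 3.58.1 voom, non-robust dispersion, terms for replicate number and stretch of library numbers, fits to the compared groups and omitted libraries. The fit was tested on simulated data. R 4.3.3, Python 3.11.15 and matplotlib 3.10.9 were used. Some items are not reported here.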

Additional observations from a re-analysis of the deposited data

Results flagged for a closer look

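Each of 28 named ribosomal protein genes and the summed share of counts were checked in each of the 4 groups for a library far from the others, by Dixon's criterion, which chance exceeds in about 1 of 20 groups. Of 116 groups checked, 3 did. Rps6 was at 276 CPM in HFD_Rosa26KO 6, where the next highest library of that group had 221. Rpl15 was at 109 CPM in Control_p53KO 1, the library highest in neutrophil markers, where the next lowest had 124. Rps15a was at 100.2 CPM in Control_p53KO 3, the library highest in Kupffer cell and T cell markers, where the next highest had 81.8.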

How the results depend on the processing

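The median of the ribosomal protein genes stayed below 0 in both diet comparisons and their average under all alternatives run, while the number past the test depended on the setting. With total counts only, the medians were -0.10 in Rosa26KO and -0.10 in the average, the counts 0 in Rosa26KO, 0 in p53KO and 2 in the average, and Rpl23 in Rosa26KO turned to 0.02 and Rpl11 to 0.08 in p53KO and to 0.03 in the average. Counts in Rosa26KO and p53KO were 4 and 1 without the filter, 27 and 19 with DESeq2, 54 and 52 with limma voom and 18 and 8 with a term for the stretch of library numbers. The share of all genes called is not given for these or the other alternative fits. Their counts are therefore not set against a background, and a method may call more genes of every kind. In p53KO the count was 0 in the fit to the compared groups only, 0 without Control_p53KO 1, Control_p53KO 3 and HFD_Rosa26KO 6, and 0 without Control_p53KO 1 and HFD_p53KO 2. In Rosa26KO it was 2 without HFD_Rosa26KO 1, HFD_Rosa26KO 6 and HFD_p53KO 5. The last 2 omissions were chosen after seeing the data. Leaving out 1 library at a time gave 2 to 27 in Rosa26KO, 0 to 10 in p53KO and 41 to 65 in the average. Without the 20 most abundant genes the shares were 1.73% and 1.53% in Rosa26KO and 1.75% and 1.51% in p53KO. In the genotype comparisons and the interaction, 0 members passed in all alternatives run. With the replicate number as a block, 15 members passed in Rosa26KO, 6 in p53KO and 62 in the average. The labels do not say that equal numbers pair the samples. Correlations of same-numbered libraries ran from -0.40 to 0.60 with a median of 0.07, and 17 of 36 were over 0.1. Of 24 libraries, 9 correlated best with their own number. These values do not settle whether equal numbers share structure. With counts above 500 in every library, counting error is small beside the spread between samples. The cause of these differences between settings was not tested.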
